A study of Rattus norvegicus with 6 samples.

Results

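The 6 genes described here are linked to dedifferentiation and adhesion in injured kidney tubules, and were followed through kidney RNA of control rats and of rats with a model of focal segmental glomerulosclerosis (FSGS), in which parts of the filtering units scar. They are Vim (ENSRNOG00000018087, chromosome 17), Cd44 (ENSRNOG00000006094, chromosome 3), Lgals3 (ENSRNOG00000010645, chromosome 15), Anxa2 (ENSRNOG00000010362, chromosome 8), Icam1 (ENSRNOG00000020679, chromosome 8) and Vcam1 (ENSRNOG00000014333, chromosome 2), out of 21986 genes in the deposited table. They were taken by Ensembl ID from a list of injury genes, by a rule that uses no measured value. The list itself was chosen with earlier results of these data known. Each ID was kept only if its chromosome in the table was the one listed for the gene, and 6 of 6 were. The same 6 chromosomes stand in the RefSeq gene table of assembly GRCr8, but no table used here pairs the IDs with names, so the names rest on the list.

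Whole kidney from wild-type male Wistar rats was sequenced as 3 control and 3 FSGS libraries. FSGS rats lost the left kidney and received adriamycin, a DNA-damaging anthracycline, by tail vein, first 5 mg/kg at day 7 and then 3 mg/kg at day 28 from the operation. For control rats only saline injections are described, so the effects of nephrectomy and adriamycin cannot be told apart. The sample titles call all 6 libraries untreated, and the groups used here are those named in the titles. Age, and whether each library is 1 animal, are not given in the sources used here, and the p-values therefore reflect the spread among 3 libraries a group, part of which may be technical.

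When tubule cells are injured they lose mature epithelial features and take on mesenchymal and adhesive ones. Vim encodes vimentin, an intermediate filament of mesenchymal cells, and Cd44 encodes the main cell-surface receptor for hyaluronan. Lgals3 encodes galectin-3, a lectin that binds galactosides at the cell surface, and Anxa2 encodes annexin A2, which binds membranes in the presence of calcium. Icam1 and Vcam1 encode immunoglobulin-family adhesion molecules, and leukocytes bind both through integrins. Fibroblasts, endothelium and leukocytes express several of these genes too. In RNA of whole kidney, a change in the number of cells of a type and a change in RNA per cell cannot be told apart, and the signal of tubules cannot be separated from that of other cells.

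The promoters of Vcam1 and Icam1 are shown because these 2 adhesion genes share textbook control by NF-kappaB and yet had different values in the kidneys described here. That of Anxa2 is shown for its match to AP-1. Sequences come from RefSeq, build GRCr8, run 5′ to 3′ on the gene's strand, and stop before the first transcript start annotated for the gene. For Vcam1 and Anxa2 that is the start used in the promoter table, and 250 bases are shown. For Icam1 another annotated transcript begins further upstream, so only the first 93 bases of the window are shown, and they end well short of the start used in the table. Capitals mark matches on either strand to GGNNNTTCC, a short form of the NF-kappaB motif, in Vcam1 and Icam1, and to TGANTCA, the AP-1 motif, in Anxa2.
Vcam1 promoter, GRCr8 chr2:206742784-206743033, minus strand: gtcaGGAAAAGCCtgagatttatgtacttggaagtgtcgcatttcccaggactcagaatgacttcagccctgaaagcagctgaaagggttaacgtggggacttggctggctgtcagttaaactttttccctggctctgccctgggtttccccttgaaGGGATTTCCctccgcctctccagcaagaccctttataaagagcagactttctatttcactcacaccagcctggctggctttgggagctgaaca
Icam1 promoter, GRCr8 chr8:27829595-27829687, plus strand: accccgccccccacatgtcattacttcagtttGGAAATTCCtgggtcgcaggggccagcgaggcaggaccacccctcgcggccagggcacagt
Anxa2 promoter, GRCr8 chr8:78986002-78986251, plus strand: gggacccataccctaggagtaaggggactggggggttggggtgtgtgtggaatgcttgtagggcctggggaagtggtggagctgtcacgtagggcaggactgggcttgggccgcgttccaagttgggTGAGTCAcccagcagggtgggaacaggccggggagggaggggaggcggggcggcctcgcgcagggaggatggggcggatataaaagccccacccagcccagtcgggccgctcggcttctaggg

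RefSeq promoters were found for 5 of the 6 genes, all but Lgals3. In the 250 bases before the start used in the promoter table, GGNNNTTCC on either strand was present in 2 of the 5, Vcam1 and Icam1, and in 15.4% of 33469 promoters of the same length. The Vcam1 match nearest the start began 93 bases before it. The match shown for Icam1 began 218 bases before the start and reads as a match on both strands. Icam1 had a second match on the minus strand, 149 bases before the start and outside the stretch shown. TGANTCA was present in 1 of the 5, Anxa2, 123 bases before the start, and in 6.34% of all promoters. The TATA box letters TATAAA were present in 4 of the 5, Vcam1, Icam1, Anxa2 and Vim, and in 12.9% of all promoters, and in Vcam1 the matches on opposite strands overlapped. A match describes the letters only. The motifs were chosen after the expression values were known.

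In FSGS kidneys, 5 of the 6 genes rose, by 1.75 to 2.64 on the log2(FPKM + 1) scale, and Vcam1 alone did not pass the test. FPKM is a count of fragments scaled for gene length and library total. Rising was called at a limma adjusted p (Benjamini-Hochberg over the 14139 genes averaging 0.5 FPKM or more) under 0.05, and all 6 genes passed that filter on low values. Among all genes tested, 27.0% (3814) rose and 2408 genes fell. That background moved with the column scaling: 14.2% rose with columns rescaled to the same total, where more genes fell (3191) than rose (2012), and 40.3% rose with columns rescaled after removal of mitochondrial and the most abundant genes. The same 5 of the 6 genes rose under both. A rise of at least 2 on the log2 scale, which is 4-fold in FPKM + 1, was called in 3 of the 6 (Vim, Lgals3 and Cd44) and in 1.78% of all genes. The median log2 change was 2.18 over the 6 and 0.11 over all genes tested. In 5 of the 6 every FSGS library lay above every control library, as it did in 34.6% of all genes.

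**Figure D1:**
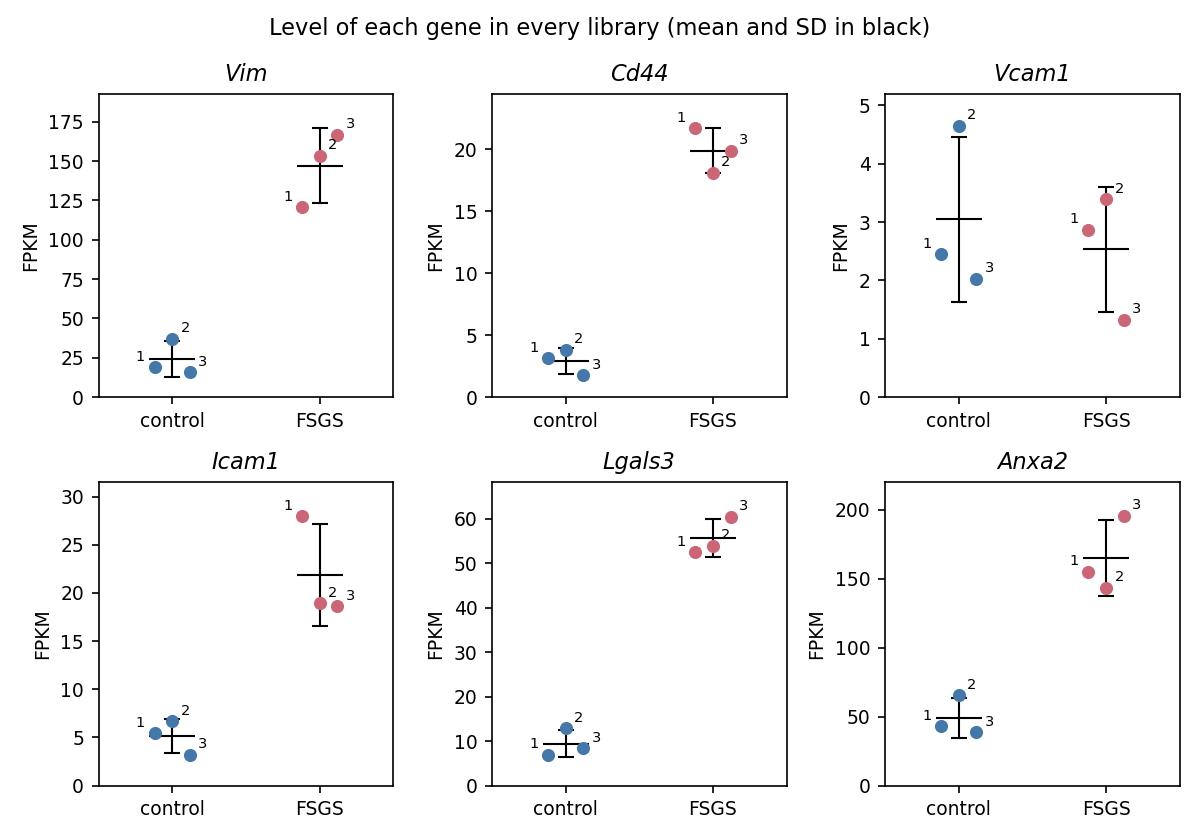
FPKM (vertical axis from 0, own scale per gene) of each gene in the 3 control libraries (blue) and the 3 FSGS libraries (red), with replicate numbers beside the points and the mean and SD in black. In Vim, Cd44, Icam1, Lgals3 and Anxa2 the groups do not overlap, and in Vcam1 they do.

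Vim, the mesenchymal filament gene, had the largest change of the 6. It stood at 19.2, 37.2 and 15.8 FPKM in controls 1, 2 and 3, and at 121, 153 and 167 FPKM in FSGS 1, 2 and 3. The lowest FSGS library was 3.25 times the highest control, so the groups were far apart although the controls themselves spread widely. The mean went from 24.0 ± 11.5 to 147 ± 23.7 FPKM (SD, n = 3 each), a ratio of 6.12. The log2 change was 2.64 ± 0.28 (SE, limma adjusted p = 0.000191), and 100 of the 14139 genes tested had a larger one.

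Cd44, the hyaluronan receptor gene, was at 3.14, 3.83 and 1.79 FPKM in controls 1, 2 and 3. It was at 21.7, 18.1 and 19.9 FPKM in FSGS 1, 2 and 3. The FSGS libraries lay close together and all stood well above the controls, the lowest being 4.73 times the highest control, the widest gap of the 6 genes. Its mean rose from 2.92 ± 1.04 to 19.9 ± 1.79 FPKM (SD, n = 3 each), and the ratio of means, 6.82, was the highest of the 6. The log2 change was 2.45 ± 0.20 (SE, limma adjusted p = 6.01e-05). On the log2(FPKM + 1) scale Cd44 ranks below Vim, because the added 1 weighs more on its low control level, and with an added 0.1 the change was 2.79 for Cd44 and 2.70 for Vim (log2 scale).

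Lgals3, the galectin-3 gene, had 6.96, 12.9 and 8.51 FPKM in controls 1, 2 and 3. In FSGS 1, 2 and 3 it had 52.4, 54.0 and 60.5 FPKM. The FSGS values varied the least of the 6 genes, with an SD that was 7.70% of the mean, against 32.3% in controls. Its mean rose from 9.44 ± 3.05 to 55.6 ± 4.28 FPKM (SD, n = 3 each), a ratio of 5.89, with a log2 change of 2.48 ± 0.20 (SE, limma adjusted p = 5.54e-05).

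Anxa2, the annexin A2 gene, was the most abundant of the 6 in both groups. Controls 1, 2 and 3 had 43.2, 65.8 and 39.0 FPKM, and FSGS 1, 2 and 3 had 155, 144 and 196 FPKM. Again no FSGS library reached down to a control, the lowest being 2.18 times the highest control, the narrowest gap among the 5 genes that rose. The mean went from 49.3 ± 14.4 to 165 ± 27.4 FPKM (SD, n = 3 each), a ratio of 3.34. The log2 change was 1.75 ± 0.21 (SE, limma adjusted p = 0.000339). Where a log2 change above 1 was required by the test itself (limma's treat), Anxa2 gave an adjusted p of 0.0654 and the other 4 genes that rose passed, Icam1 at 0.0474.

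Icam1, the adhesion gene bound by leukocyte integrins of the beta-2 class, was at 5.43, 6.70 and 3.22 FPKM in controls 1, 2 and 3. It was at 28.0, 18.9 and 18.6 FPKM in FSGS 1, 2 and 3. FSGS 1 was the highest FSGS library for Icam1, as it was for Cd44, while for Vim, Lgals3 and Anxa2 the highest was FSGS 3. Over all genes tested, FSGS 1 was the highest FSGS library in 54.8% and FSGS 3 in 13.6%. The Icam1 mean rose from 5.12 ± 1.76 to 21.8 ± 5.30 FPKM (SD, n = 3 each), a ratio of 4.27, and the log2 change was 1.92 ± 0.24 (SE, limma adjusted p = 0.000397).

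Vcam1, the other adhesion gene, did not follow the rest. It was at 2.45, 4.65 and 2.03 FPKM in controls 1, 2 and 3, and at 2.87, 3.39 and 1.33 FPKM in FSGS 1, 2 and 3. The groups overlapped, and the highest and the lowest of the 6 values were control 2 and FSGS 3. FSGS 3 was also the lowest FSGS library in 59.1% of all genes tested. The Vcam1 means were 3.04 ± 1.41 in controls and 2.53 ± 1.07 FPKM in FSGS (SD, n = 3 each). The log2 difference, FSGS minus control, was -0.19 ± 0.29 (SE, limma adjusted p = 0.621), with a 95% interval of -0.85 to 0.47. On the log2(FPKM + 1) scale that interval holds falls and small rises. It lies below the interval of each of the 5 other genes, the lowest of which begins at 1.26 for Anxa2. The added 1 narrows the Vcam1 interval at these low levels, and with 0.1 added the difference was -0.27 ± 0.40 (SE). The sign of the Vcam1 difference turned when 1 library was left out, to 0.08 without control 2 and to 0.08 without FSGS 3 (limma adjusted p = 0.845 and 0.827).

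**Figure D2:**
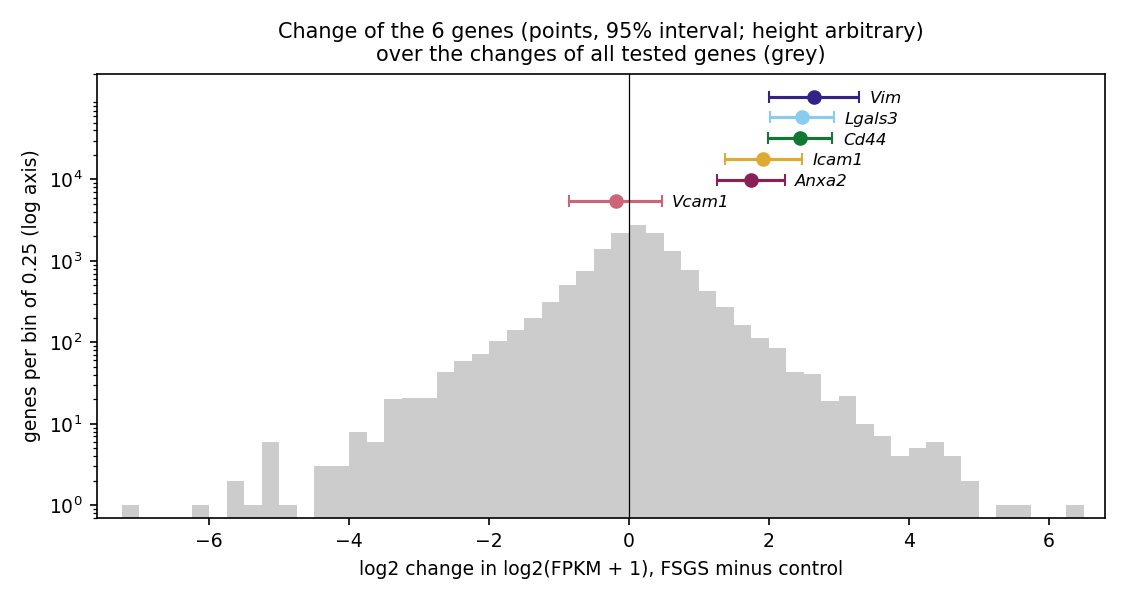
Log2 change, FSGS minus control, of the 6 genes (points, with 95% intervals from limma, heights arbitrary) over a histogram of the changes of all 14139 genes tested (grey, genes per bin on a log axis). Vim, Lgals3, Cd44, Icam1 and Anxa2 lie in the upper tail, from 1.75 to 2.64, and Vcam1 lies near the middle at -0.19.

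Ratios between the genes were compared in all 15 pairs, which cancels any factor that multiplies a whole library, save for the added 1. In 9 pairs the log2 ratio did not overlap between control and FSGS libraries (two-sided exact permutation p = 0.1 for each, the smallest 3 against 3 libraries can give; 0.167 adjusted over the 15 pairs), so no pair could pass 0.05. All 5 pairs with Vcam1 were among them, and these are not independent, since Vcam1 is in each. The share of non-overlapping ratios among pairs of all genes tested was not computed, so the 9 pairs have no background beside them. The 2 adhesion genes, Icam1 and Vcam1, had FPKM ratios of 2.22, 1.44 and 1.59 in controls 1, 2 and 3, and of 9.74, 5.58 and 14.0 in FSGS 1, 2 and 3. The log2 ratio of Vcam1 to Icam1 changed by -2.11 ± 0.31 (SE).

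In the other 4 of the 9 pairs the ratios of Vim, Cd44 and Lgals3 to Anxa2, and of Cd44 to Icam1, were higher in FSGS than in control libraries, although the mean levels of Anxa2 and Icam1 stayed above those of their partners. The FPKM ratio of Vim to Anxa2 was 0.445, 0.564 and 0.404 in controls 1, 2 and 3. In FSGS 1, 2 and 3 it was 0.778, 1.07 and 0.852. Vim thus reached about the level of Anxa2 in FSGS kidneys, and the log2 ratio rose by 0.90 ± 0.19 (SE, exact permutation p = 0.1, the smallest possible). The Lgals3 to Anxa2 ratio went from 0.161, 0.195 and 0.218 to 0.337, 0.376 and 0.309 in replicates 1, 2 and 3, a log2 change of 0.73 ± 0.14 (SE, exact permutation p = 0.1). Among Vim, Cd44 and Lgals3 the ratios overlapped between the groups, with log2 changes of -0.03 to 0.20 (exact permutation p = 0.5 to 0.8), and such p-values do not show that the 3 genes changed alike.

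The order of levels, which FPKM allows since it is per length, changed at the lower end. In controls it was Anxa2, Vim, Lgals3, Icam1, Vcam1 and Cd44. The neighbours Icam1 and Vcam1, and Vcam1 and Cd44, overlapped in FPKM across the 3 controls, and the other neighbours did not. In FSGS the order was Anxa2, Vim, Lgals3, Icam1, Cd44 and Vcam1. There Anxa2 overlapped with Vim and Icam1 with Cd44, while Cd44 stood 7.87 times above Vcam1 in mean FPKM. In controls the Vcam1 mean was 1.04 times that of Cd44.

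Control 2 had the highest level of its group in 6 of the 6 genes, while it was the highest control in 43.0% of all genes tested. Relative to the mean of the controls on the log2(FPKM + 1) scale, control 2 stood 0.34 (Cd44) to 0.70 (Vim) higher in these genes. The median over all genes tested was 0.05 in that library. Control 3 was the lowest control in 5 of the 6 genes and in 65.5% of all genes. Without control 2 the same 5 genes passed the test, with log2 changes of 1.97 to 2.99. Each change had to be larger than with control 2, because leaving out the highest control lowers the control mean.

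**Figure D3:**
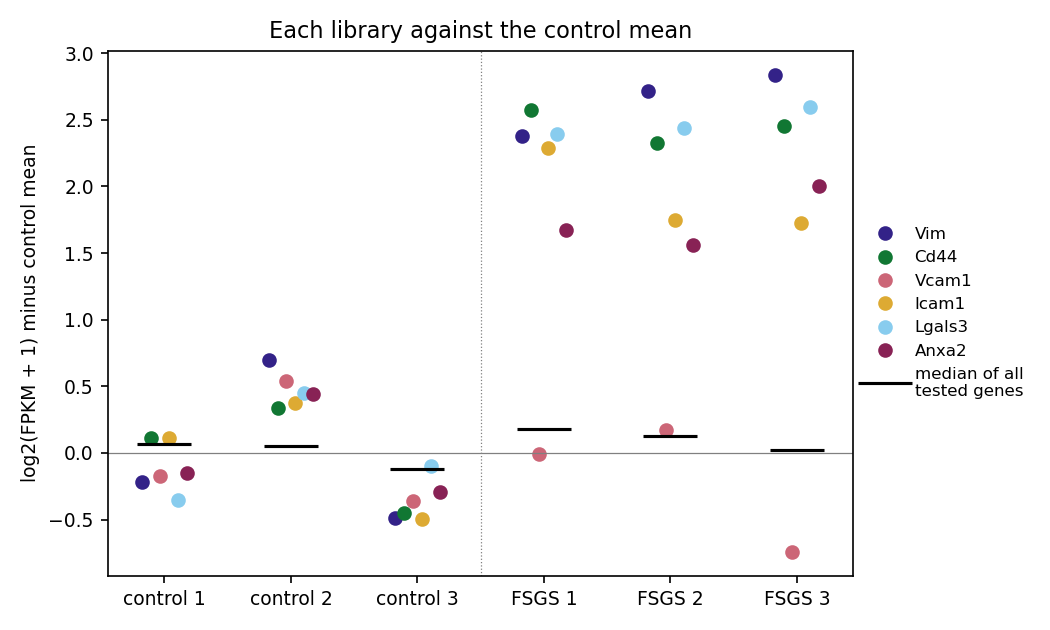
Log2(FPKM + 1) of each gene in each library minus the mean of the 3 controls (coloured points), with the median over all tested genes as a black bar. In control 2 all 6 genes lie above the bar, and in the FSGS libraries Vcam1 lies between -0.74 and 0.17 while the other 5 genes lie at 1.56 or higher.

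Library composition moved with the groups. The columns summed to 614047 to 691777 FPKM in controls and to 754892 to 824403 FPKM in FSGS. Mitochondrially encoded genes held 51.6% to 62.9% of that sum in controls and 64.0% to 71.7% in FSGS. Their part in the members' changes was tested only by rescaling the columns, and the 5 genes that rose did so under each of the 4 scalings tried. With columns rescaled to the same total, which gave the smallest changes of the 4 for each of these 5 genes, the log2 changes were 2.38 for Vim, 2.29 for Cd44, 2.24 for Lgals3, 1.71 for Icam1 and 1.47 for Anxa2. Vcam1 was below 0 under each of them, from -0.43 to -0.09, and passed the test under none.

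**Figure D4:**
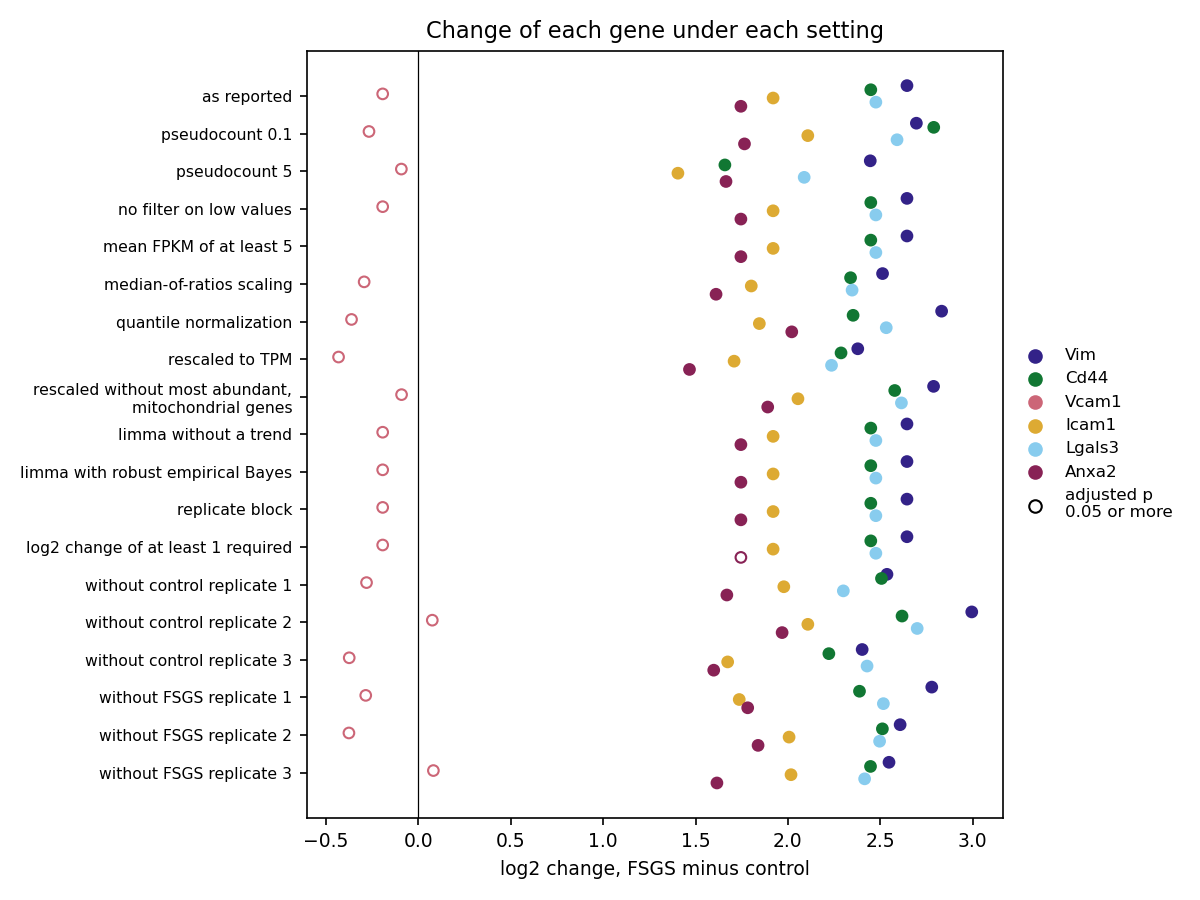
Log2 change, FSGS minus control, of each gene (horizontal axis) as reported and under each of the 18 alternative settings (1 line each), filled where the limma adjusted p was under 0.05 and open where it was not. Vcam1 is open throughout and is missing where a mean of at least 5 FPKM was required, and Anxa2 is open once, where a log2 change above 1 was required.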

How the data were processed

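Kidney RNA of 3 control and 3 FSGS libraries was poly(A)-selected, strand-marked and sequenced as paired ends, per the labels' protocols. The deposited table holds FPKM per the file headers, a unit in which the authors scaled fragments to gene length and library total, with 2 decimals. Tools listed in the submitters' processing notes, with no role given, are HISAT2 2.2.1, StringTie 2.1.6, cutadapt 1.9, edgeR and DESeq2. The build is not given in the sources used here. Low values showed no steps of whole reads (no window of log2 ratios held more than 12.8% of genes), and depth therefore remains unknown.

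Genes with a mean of at least 0.5 FPKM (14139 of 21986) were fitted as log2(FPKM + 1) by group with limma 3.58.1 (R 4.3.3, mean-variance trend), with Benjamini-Hochberg adjustment over all of them. The added 1 understates changes of low genes. The procedure was tested on simulated data. Intervals are 95%. Ratios of gene pairs were tested by exact permutation, two-sided. The named genes are the 6 listed, whatever their values, and the 2 other genes most like their mean profile. Lists of related genes and cell type markers needed names and were not used here. Members and lists were chosen with earlier results of these data known. Alternatives changed the pseudocount, the filter, the column scaling or the limma options, used the replicate number as a block, or left out each library in turn.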

Additional observations from a re-analysis of the deposited data

How the results depend on the processing

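Vim, Cd44, Lgals3 and Icam1 rose and passed the test in each of the 18 alternatives, and Anxa2 in 17. Anxa2 kept its log2 change of 1.75 but had an adjusted p of 0.0654 by limma where a log2 change above 1 was required. Vcam1 passed under none of its 17 alternatives (limma adjusted p from 0.284 to 1) and was not tested at a mean of at least 5 FPKM. Its log2 difference, -0.19, ran from -0.38 to 0.08 when single libraries were left out, at 0.076 without control replicate 2 and 0.082 without FSGS replicate 3. The pseudocount moved Cd44 from 2.79 (0.1 added) to 1.66 (5 added) and Icam1 from 2.11 to 1.40 on the log2 scale. Over all genes, 6222 were called as reported, 3672 at a mean of at least 5 FPKM, where fewer genes were tested, 678 where a log2 change above 1 was required, and 4924 to 5551 leaving out single libraries. The rising share of all calls, 61.3%, was 49.8% with median-of-ratios scaling, 51.7% with quantile normalization, 38.7% after rescaling to the same total and 71.5% when columns were rescaled with mitochondrial and the most abundant genes removed. With the replicate number as a block, 5 of the 6 genes and 6900 of all genes were called, with Vcam1 at an adjusted p of 0.327 by limma. The numbers were not taken as pairs, because they are not stated to mark a shared animal, litter or day. Across genes, deviations from the group means correlated at 0.132, 0.0319 and 0.0235 between libraries with the same number. Between libraries with different numbers they correlated at -0.124 to 0.0902. These few values do not settle whether the numbers mark pairs. Depth is unknown, and its part in the low values of Vcam1 was not tested.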

Other observations

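Among all other genes tested, ENSRNOG00000060538 on chromosome 2 was the one whose values over the 6 libraries were most like the mean profile of the 6 genes (Pearson r = 0.999 over 6 libraries). Controls 1, 2 and 3 had 25.7, 33.4 and 22.8 FPKM of it, and FSGS 1, 2 and 3 had 53.4, 51.9 and 48.2 FPKM. The next was ENSRNOG00000039744 on chromosome 20 (r = 0.998 over 6 libraries), with 6.76, 11.2 and 5.07 FPKM in the controls against 27.3, 26.5 and 23.9 FPKM in the FSGS libraries. Both were highest in control 2 and lowest in control 3 among controls, an order favoured by their choice for likeness to the 6 genes. The libraries fall into 2 groups, so these r values mostly follow the difference between the groups and are a description only. Of the 6 genes themselves, 5 had r of 0.962 to 0.977 with that mean profile, which includes them, and Vcam1 had 0.086.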
